A study of Mus musculus with 4 samples.

Results

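The FoxO transcription factors, the sestrins and 3 genes of growth arrest were followed in the tibialis anterior, a fast-twitch shin muscle, of C57BL/6 mice at postnatal day 21. The set was fixed by gene name and held 10 of the 32868 gene names in the files: Foxo1, Foxo3, Foxo4 and Foxo6, the sestrins Sesn1, Sesn2 and Sesn3, and Cdkn1a, Gadd45a and Txnip. Each had a single row in the files, and each passed the filter on low values (at least 0.5 RPKM in at least 2 libraries), as did 10690 genes in all. RPKM is a read count per unit of gene length and sequencing depth. The Nf1-KO group had the genotype Nf1flox/flox/Myf5+ and the Het group Nf1flox/+/Myf5+, with 2 libraries of total RNA each. Nf1 encodes neurofibromin, which switches off Ras, and the comparison asks what its loss does in growing muscle. The labels do not spell out what Myf5+ carries; in crosses of this kind it stands for Cre recombinase made under Myf5, a gene of muscle precursors. The Het muscles carried a floxed allele and the same driver, so the reference is not a wild-type muscle. Whether libraries came from separate animals is not stated, and p-values measure only the spread between these libraries. That spread was small. Over 4827 of the more abundant genes, the median SD was 2.02% of the mean in Het and 1.91% in Nf1-KO. How far animals of a genotype differ cannot be read from it.

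FoxO factors are forkhead transcription factors that sit downstream of insulin and growth factor signalling. Akt phosphorylates them, 14-3-3 proteins then hold them in the cytoplasm, and when Akt signalling falls they enter the nucleus and switch on genes of protein breakdown, autophagy and fuel use. In skeletal muscle they are best known as drivers of atrophy. Sestrins are stress-induced proteins that bind the GATOR2 complex and restrain the growth kinase mTORC1, and Sesn1 and Sesn3 are known targets of FoxO. Cdkn1a encodes p21, an inhibitor of cyclin-dependent kinases that p53 switches on, Gadd45a encodes a small stress protein induced in denervated muscle, and Txnip encodes an arrestin-like protein that binds thioredoxin and limits glucose uptake.

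The sequences just upstream of the start sites are shown for the 4 members that held, within these bases, the letters of a known response element and that moved in the comparison. They are the 250 bases before the RefSeq start, written 5′ to 3′ on the gene's strand, from a table on the build GRCm38.p6. Of the 10 members, 8 matched that table with 10 start sites; Cdkn1a is shown at the upstream and Sesn1 at the downstream of its annotated starts. Windows of 300 bases (250 before and 50 after the start) were searched on both strands for 6 motifs, and the capitals mark every match.
Cdkn1a, chr17:29090729-29090978, plus strand: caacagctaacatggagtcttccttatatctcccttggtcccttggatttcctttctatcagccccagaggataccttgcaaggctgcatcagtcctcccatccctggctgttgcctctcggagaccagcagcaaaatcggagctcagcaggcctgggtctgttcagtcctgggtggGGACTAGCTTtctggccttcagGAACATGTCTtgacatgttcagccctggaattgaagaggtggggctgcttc
Sesn1, chr10:41887189-41887438, plus strand: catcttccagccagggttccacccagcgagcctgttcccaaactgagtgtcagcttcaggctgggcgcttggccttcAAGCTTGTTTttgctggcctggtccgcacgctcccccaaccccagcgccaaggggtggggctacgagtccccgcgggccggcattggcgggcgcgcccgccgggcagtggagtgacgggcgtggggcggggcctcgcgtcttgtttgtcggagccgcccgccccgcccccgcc
Gadd45a, chr6:67037408-67037657, minus strand: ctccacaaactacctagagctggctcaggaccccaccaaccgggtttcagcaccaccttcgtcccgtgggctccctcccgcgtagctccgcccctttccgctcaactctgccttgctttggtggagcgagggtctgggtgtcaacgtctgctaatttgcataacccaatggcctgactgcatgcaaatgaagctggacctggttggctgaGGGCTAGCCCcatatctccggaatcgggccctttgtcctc
Txnip, chr3:96557707-96557956, plus strand: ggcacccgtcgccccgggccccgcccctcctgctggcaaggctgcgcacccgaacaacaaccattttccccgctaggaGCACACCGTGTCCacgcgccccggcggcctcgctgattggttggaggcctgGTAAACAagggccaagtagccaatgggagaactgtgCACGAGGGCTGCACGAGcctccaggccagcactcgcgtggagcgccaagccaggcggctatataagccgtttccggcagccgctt
In Cdkn1a, Sesn1 and Gadd45a the capitals are decamers of the p53 response element. They lay at positions -73 to -64 and -51 to -42 of Cdkn1a, at -173 to -164 of Sesn1 and at -40 to -31 of Gadd45a, counted from the first base of the transcript as 1. That decamer was present in 8.36% of 32851 promoter windows. In Txnip the capitals are, in order, a glucocorticoid receptor element (GNACANNNTGTNC, in 0.475% of windows), a FoxO element (GTAAACA, 3.65%) and a pair of carbohydrate response sites (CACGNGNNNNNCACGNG, 0.0487% of windows, or 16 of them). The FoxO element of Txnip spanned positions -121 to -115. Sesn1 held another FoxO element at positions 23 to 29 of its other annotated start. An ATF4 element (TGATGNAA, 3.97%) and an E-box (CACGTG, 7.15%) were in none of the 10 windows. No match overlapped another, and a match describes letters only, not binding.

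Nf1 itself was 1.09 and 1.01 RPKM in Het and 0.89 and 0.85 RPKM in Nf1-KO. The groups did not overlap, and the log2 fold change was -0.18 ± 0.057 (SE, limma adjusted p 0.041). With the values as deposited and not scaled it was -0.13 (adjusted p 0.094), and leaving out any single library also lost the call (-0.21 to -0.15). The authors' deposited table called Nf1 lower, at -0.38 (adjusted p 0.0026). Adding 0.1 in place of 1 before the log gave -0.33 for Nf1 (limma adjusted p 0.045). Markers of muscle fibres were abundant, with summed levels of 59498.5 and 59660 RPKM in Het and 50789.6 to 51056.8 RPKM in Nf1-KO. Of these 9 genes, 6 were lower and 3 higher past the threshold. Markers of other cells moved too. The immune list of 9 genes summed to 8.72 to 9.08 RPKM in Het and 27.9 to 28.0 RPKM in Nf1-KO (3 of 3 tested genes higher). Lyz2 made up most of that sum, at 7.47 and 7.38 RPKM in Het and 24.35 and 24.62 RPKM in Nf1-KO. Adgre1 and its older name Emr1 were listed at 0. The Schwann cell list summed to 15.1 to 15.5 RPKM in Het and 33.4 to 34.9 RPKM in Nf1-KO (6 of 6 higher). The summed levels in Het and Nf1-KO were 178 to 185 and 266 to 268 RPKM for adipocyte (2 of 3 tested genes higher), 77.9 to 78.6 and 86.7 to 88.0 RPKM for endothelial (3 of 6 higher, 1 lower), 93.6 to 97.4 and 105 to 106 RPKM for fibroblast (3 higher and 3 lower of 6), 21.6 to 21.8 and 30.3 to 30.9 RPKM for satellite cell (1 of 3 higher) and 1.37 to 1.45 and 1.66 to 1.77 RPKM for red cell markers, where 0 of 1 tested gene was called and Hbb-b1 was listed at 0. The part of these cells in the results below was not tested. In whole muscle, more cells of a type and more RNA per cell cannot be told apart.

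Of the 10 members, 9 passed an adjusted p of 0.05 in limma, 7 higher and 2 lower in Nf1-KO, where 50.3% of all tested genes passed, 24.9% higher and 25.4% lower. The median log2 fold change of the members was 0.36, against 0.00051 over all tested genes. The members were chosen with earlier results of these data known, so these counts and medians are no test of enrichment. Both libraries of a group lay beyond both of the other in 9 members by the deposited values, where 77.3% of tested genes did so, so a lack of overlap alone said little in this comparison. The authors' deposited table called 7 of the 10, 5 higher and 2 lower, where it called 31.6% of its rows. It left out Foxo4 and Sesn3, beside Sesn2.

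**Figure D1:**
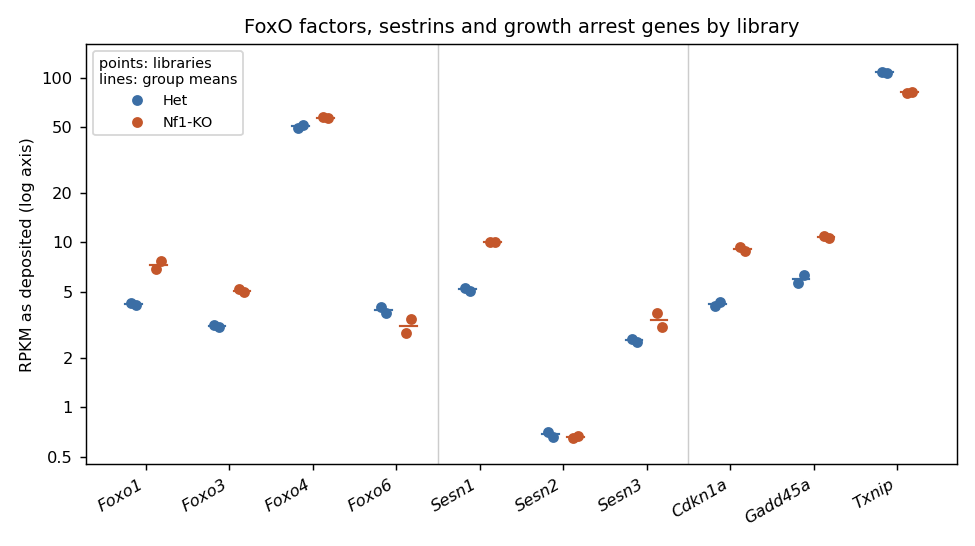
RPKM as deposited (log axis) of the 10 genes in each of the 4 libraries; points are libraries and short lines are group means. Foxo4 and Txnip stand near or above 50 RPKM and Sesn2 near 0.7 RPKM. The Nf1-KO points lie above the Het points for Foxo1, Foxo3, Foxo4, Sesn1, Sesn3, Cdkn1a and Gadd45a and below them for Foxo6 and Txnip.

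Among the FoxO factors, Foxo1 and Foxo3 rose in Nf1-KO muscle, Foxo4 rose slightly and Foxo6 fell. Foxo1 (chromosome 3, 52268336 to 52353221 on GRCm38), the member most closely tied to fuel choice and atrophy, was 4.30 and 4.15 RPKM in Het and 6.87 and 7.74 RPKM in Nf1-KO. The groups stood far apart, with a wider gap between the Nf1-KO libraries than between the Het libraries. Its mean deposited RPKM rose by 72.9%, and after scaling the log2 fold change was 0.59 ± 0.060 (SE, limma adjusted p 4.2e-04). Foxo3 (chromosome 10, 42181841 to 42276755), which drives the ubiquitin ligases and autophagy genes of atrophy, was 3.15 and 3.06 RPKM in Het and 5.19 and 4.99 RPKM in Nf1-KO. Replicates lay close together in both groups. Mean deposited RPKM of Foxo3 rose by 63.9%, and after scaling the log2 fold change was 0.49 ± 0.047 (SE, limma adjusted p 3.3e-04).

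Foxo4 (chromosome X, 101254528 to 101260873) was by far the most abundant FoxO transcript per length, at 49.81 and 51.24 RPKM in Het and 57.61 and 56.82 RPKM in Nf1-KO. All 4 values lay within a narrow band, with both Nf1-KO libraries above both Het libraries. The level was 13.2% higher, and after scaling the log2 fold change was 0.08 ± 0.026 (SE, limma adjusted p 0.037). This call was fragile: it was lost in the authors' deposited table (0.072, adjusted p 0.098), and without Het replicate 1 (0.055, adjusted p 0.199) or Nf1-KO replicate 1 (0.081, adjusted p 0.10). With unscaled values the log2 fold change was 0.18.

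Foxo6 (chromosome 4, 120267079 to 120287349), a FoxO best known from the brain, went the other way. It was 4.06 and 3.73 RPKM in Het and 2.83 and 3.41 RPKM in Nf1-KO. The groups did not overlap, but the Nf1-KO libraries were farther from each other than the nearer of them was from Het. Mean deposited RPKM fell by 19.9%, and after scaling the log2 fold change was -0.32 ± 0.078 (SE, limma adjusted p 0.015). It was -0.28 without Het replicate 1, where the call was lost (adjusted p 0.081), -0.42 without Nf1-KO replicate 2 and -0.22 without Nf1-KO replicate 1.

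Summed over the 4 genes, FoxO transcripts came to 61.32 and 62.18 RPKM in Het and 72.5 and 72.96 RPKM in Nf1-KO. The order of levels in Het was Foxo4, Foxo1, Foxo6 and Foxo3, where the lower Foxo1 value, 4.15 RPKM, was just above the higher Foxo6 value, 4.06 RPKM. In Nf1-KO it was Foxo4, Foxo1, Foxo3 and Foxo6, with no overlap between neighbours. Within each library these proportions are free of any scaling between libraries. Foxo1 made up 7.01% and 6.67% of the sum in Het and 9.48% and 10.6% in Nf1-KO, a difference of 3.20 percentage points. Foxo3 went from 5.03% ± 0.153 to 7.0% ± 0.226 (SD, n = 2), Foxo6 from 6.31% ± 0.440 to 4.29% ± 0.545, and Foxo4 from 81.8% ± 0.832 to 78.7% ± 1.12. No share overlapped between the groups, and the exact two-sided permutation test over libraries gave 0.33 for each, the smallest p that 2 against 2 allows.

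Sesn1 changed most among the sestrins. Sesn1 (chromosome 10, 41809935 to 41908424), the sestrin known as a p53 and FoxO target, was 5.27 and 5.10 RPKM in Het and 10.01 and 10 RPKM in Nf1-KO. Replicates nearly coincided and the groups stood apart by nearly the whole Het level. Its mean deposited RPKM rose by 93.0%. After scaling the log2 fold change was 0.75 ± 0.039 (SE, limma adjusted p 2.5e-05), a larger absolute change than in 95.9% of tested genes. Sesn3 (chromosome 9, 14275067 to 14333101), also a FoxO target, was 2.61 and 2.48 RPKM in Het and 3.71 and 3.07 RPKM in Nf1-KO. Both Nf1-KO libraries were above Het, but they differed from each other by more than the lower of them differed from Het. The log2 fold change was 0.23 ± 0.078 (SE, limma adjusted p 0.047), at the edge of the threshold. The call was lost without Nf1-KO replicate 1 (0.14, adjusted p 0.195), without Het replicate 1 (0.26, 0.111) and without Het replicate 2 (0.21, 0.151), and in the authors' deposited table (0.31, adjusted p 0.173); without Nf1-KO replicate 2 it was 0.35.

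Sesn2 (chromosome 4, 132492032 to 132510501), the sestrin induced through ATF4 and NRF2, was the least abundant member, at 0.71 and 0.66 RPKM in Het and 0.65 and 0.67 RPKM in Nf1-KO. The groups overlapped. The log2 fold change was -0.06 with a 95% interval of -0.20 to 0.08 (limma adjusted p 0.416), so on this scale, which compresses low values, a change of the size seen in Sesn1 lay outside the interval. The authors' deposited table gave -0.16 with a standard error of 0.306 from a mean normalized count of 84.8. As a family, sestrin transcripts summed to 8.59 and 8.24 RPKM in Het and 14.37 and 13.74 RPKM in Nf1-KO. Sesn1 supplied 61.4% and 61.9% of that sum in Het and 69.7% and 72.8% in Nf1-KO, a difference of 9.60 percentage points (exact two-sided permutation p 0.33). The shares of Sesn3 and Sesn2 were 30.2% ± 0.203 and 8.14% ± 0.181 in Het and 24.1% ± 2.46 and 4.70% ± 0.250 in Nf1-KO (SD, n = 2). In both groups the order of levels was Sesn1, Sesn3, Sesn2, with no overlap between neighbours.

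**Figure D2:**
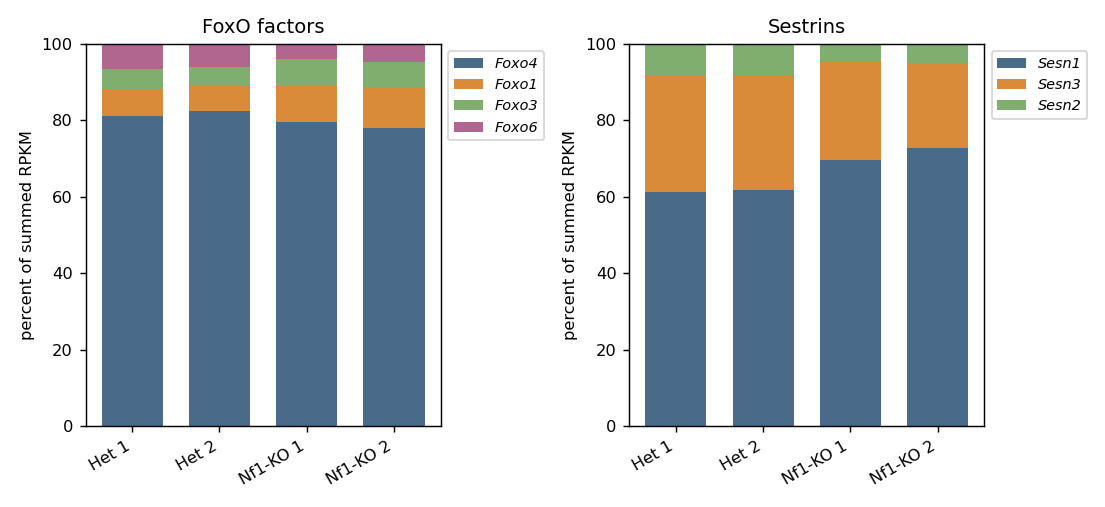
Share of each gene in the summed RPKM of its family (percent, y axis) in each library (x axis), for FoxO factors on the left and sestrins on the right. Foxo4 fills 77.9% to 82.4% of every FoxO bar, while Sesn1 goes from 61.4% and 61.9% in Het to 69.7% and 72.8% in Nf1-KO.

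Of the growth arrest genes, Cdkn1a and Gadd45a rose and Txnip fell. Cdkn1a (chromosome 17, 29090976 to 29100727) carries the p53 decamers printed above before its upstream start. It was 4.13 and 4.34 RPKM in Het and 9.33 and 8.89 RPKM in Nf1-KO. The lower Nf1-KO value was above the higher Het value by more than the whole Het level. Its mean deposited RPKM rose 2.15-fold. After scaling the log2 fold change was 0.87 ± 0.047 (SE, limma adjusted p 2.9e-05), the largest change of the 10 members. Gadd45a (chromosome 6, 67035096 to 67037457) was 5.67 and 6.33 RPKM in Het and 10.89 and 10.57 RPKM in Nf1-KO. The groups were again well apart. Mean deposited RPKM of Gadd45a rose by 78.8%, and after scaling the log2 fold change was 0.66 ± 0.055 (SE, limma adjusted p 1.8e-04).

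Txnip (chromosome 3, 96557957 to 96561883) was the most abundant member and fell, from 108.38 and 106.78 RPKM in Het to 81.12 and 81.98 RPKM in Nf1-KO. The distance between the groups was many times that between replicates. Mean deposited RPKM fell by 24.2%. After scaling the log2 fold change was -0.49 ± 0.021 (SE), with the smallest limma adjusted p of the members, 1.1e-05. With unscaled values it was -0.40. Its direction was opposite to that of Foxo1, Foxo3 and Sesn1.

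**Figure D3:**
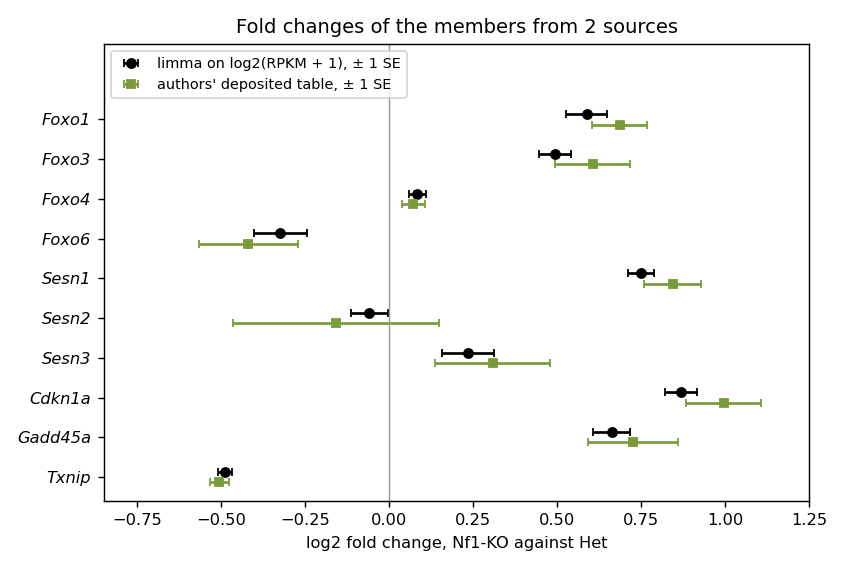
Log2 fold change of Nf1-KO against Het (x axis) for each gene (y axis), from limma on log2(RPKM + 1) (circles) and from the authors' deposited table (squares); bars are 1 standard error. Both sources place Cdkn1a (0.87 and 1.00) and Sesn1 (0.75 and 0.84) farthest to the right and Txnip (-0.49 and -0.51) farthest to the left.

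The authors' deposited table gave the same direction for all 10 members. Its log2 fold changes were 0.69 for Foxo1, 0.61 for Foxo3, 0.73 for Gadd45a and -0.42 for Foxo6, each somewhat larger in size than in limma on log2(RPKM + 1), where the added 1 pulls low genes towards 0. Its mean normalized counts ran from 84.8 (Sesn2) to 12636 (Txnip), with 302 for Sesn3, 422 for Foxo6, 481 for Gadd45a, 670 for Foxo3, 692 for Cdkn1a, 1189 for Sesn1, 1504 for Foxo1 and 8893 for Foxo4. The low counts of Sesn2, Sesn3 and Foxo6 go with the widest standard errors of that table. A value of 1 RPKM stood for between 57.5 of these counts (Gadd45a) and 261 (Foxo1). For Sesn3, whose longest GENCODE transcript has 9125 bases, it stood for 102, and for Foxo4, with 3162 bases, for 165, so levels per length between genes rest on gene lengths that the files do not give. Exons of Foxo1, Cdkn1a, Gadd45a and Txnip overlap a gene on the opposite strand, and whether counting used strand is not stated. The partners of Gadd45a (E230016M11Rik) and Txnip (Gm15441) had rows of their own, at 0.01 to 0.04 and 0.15 to 0.25 RPKM; for Foxo1 (Gm20402) and Cdkn1a (AC167363.2) no row of that name was found.

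Known FoxO target genes of muscle, 27 genes outside the set, were mostly higher. All 27 were tested. Past the threshold, 20 were higher and 4 lower (88.9% called, against 50.3% of all tested genes). The 3 not called were Atg4b, Insr and Trim63, a ubiquitin ligase gene of atrophy. Trim63 was 54.6 and 59.4 RPKM (log2 fold change 0.03, limma adjusted p 0.359). The median log2 fold change of the 27 genes was 0.34. FoxO protein was not measured here, and the part of FoxO in these changes was not tested. This list and those below were written with earlier results of these data known, so their shares called are no test of enrichment. Each share called below stands beside the same 50.3% of all tested genes. Lpl, which releases fatty acids from lipoproteins, went from 93.5 ± 0.297 to 326 ± 4.09 RPKM (SD, n = 2), Pdk4, which shuts pyruvate out of the mitochondrion, from 283 ± 1.76 to 658 ± 3.11 RPKM, and Klf15, a regulator of amino acid and lipid use, from 15.6 ± 0.240 to 32.5 ± 0.672 RPKM, with log2 fold changes of 1.70, 1.12 and 0.92. The lower genes included Atg12 (-0.51) and Ulk2 (-0.49) of autophagy and the repressor Bcl6 (-0.37). Lpl is also made by adipocytes, whose markers did not move as one. Fabp4, which made up most of their summed level, was higher (log2 fold change 0.42), as was Cfd, at 5.87 and 6.80 RPKM in Het and 17.34 and 17.71 RPKM in Nf1-KO, while Adipoq did not pass (-0.19, limma adjusted p 0.058). Plin1 and Lep were below the filter, at 0.41 and 0.34 RPKM and 0.21 and 0.22 RPKM in Het and at 0.35 and 0.35 RPKM and 0.03 and 0.05 RPKM in Nf1-KO. The part of adipocytes in the level of Lpl was not tested.

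Of regulators that act on FoxO proteins, 10 of 28 tested genes passed the threshold (35.7% called), 5 higher and 5 lower, with a median of -0.04. The split was 12 higher and 5 lower with unscaled values, where the median was 0.05. Pik3r1, the regulatory subunit of phosphoinositide 3-kinase, was 3.04 ± 0.035 RPKM in Het and 6.07 ± 0.049 RPKM in Nf1-KO (SD, n = 2), a log2 fold change of 0.73 (limma adjusted p 4.6e-05). Ppp2ca, a catalytic subunit of the phosphatase PP2A, rose by 0.52 and the deacetylase gene Sirt1 by 0.28 on the log2 scale. The kinase gene Nlk (-0.42) and the acetyltransferase gene Ep300 (-0.32) were lower.

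Partners of the sestrins leaned the other way from Sesn1. Of 17 tested genes, 2 were higher and 8 lower past the threshold (58.8% called), with a median of -0.11; with unscaled values 4 were higher and 4 lower and the median was -0.04. Wdr59, a GATOR2 subunit, went from 2.66 ± 0.120 to 1.77 ± 0.085 RPKM (SD, n = 2), with a log2 fold change of -0.46, and Rragd, a Rag GTPase that recruits mTORC1 to the lysosome, from 31.2 ± 0.530 to 24.1 ± 0.170 RPKM (-0.45). Prkaa2, the muscle catalytic subunit of AMPK, was lower by a log2 fold change of -0.33. Nfe2l2, which encodes NRF2, was higher (0.37), as was Rraga (0.11), whose call was lost when the 20 most abundant genes were left out of the scaling. Rragc was listed at 0 in all libraries, as were 13909 gene names in the files. Whether a value at or near 0, here or in the lists below, reflects expression or how reads were assigned was not tested.

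The p53 list, which holds regulators and targets of p53 apart from the members, gave no single direction. Of 17 tested genes 6 were higher and 4 lower past the threshold (58.8% called), with a median of 0.07; with unscaled values 8 were higher and 3 lower. Btg2, an antiproliferative gene, rose from 8.09 ± 0.057 to 15.3 ± 0.983 RPKM (SD, n = 2), and the receptor genes Fas and Eda2r had log2 fold changes of 0.48 and 0.46. Phlda3, a p53 target that restrains Akt, fell most of these genes, from 166 ± 3.27 to 106 ± 0.792 RPKM (-0.74), with Zmat3 at -0.27 and Rrm2b at -0.25. Mdm2, a classical p53 target, did not pass (11.8 and 11.8 RPKM, log2 fold change -0.08, limma adjusted p 0.256), and Trp53 was below the filter at 0.12 and 0.165 RPKM. Beside Cdkn1a and Sesn1, listed p53 targets rose, fell or did not pass, and the part of p53 was not tested.

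Other arrest genes and D cyclins had 9 genes higher and 3 lower past the threshold of 17 tested (70.6% called), with a median of 0.17. Btg2, which is in this list too, had the largest rise (log2 fold change 0.75). Gadd45g, the Gadd45 gene with the highest level, rose from 55.5 ± 0.933 to 94.1 ± 1.63 RPKM (SD, n = 2), with a log2 fold change of 0.66. Gadd45b was 10.6 ± 1.27 and 9.46 ± 0.269 RPKM (-0.24, limma adjusted p 0.039), a call that was lost with unscaled values. Cdkn1b, which encodes p27, rose by 0.34 on the log2 scale, less than Cdkn1a, and Ccnd1, the cyclin D1 gene, fell by 0.39.

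Partners of Txnip were split, with 3 of 11 tested genes higher and 4 lower (63.6% called) and a median of -0.06, which was 0.03 with unscaled values. Arrdc2, another alpha-arrestin, rose from 17.2 ± 0.247 to 34.3 ± 1.35 RPKM (SD, n = 2), with a log2 fold change of 0.86, against the fall of Txnip. Arrdc4, an alpha-arrestin with a carbohydrate response like that of Txnip, was 1.24 and 1.53 RPKM in Het and 1.26 and 1.22 RPKM in Nf1-KO and did not pass (limma adjusted p 0.161), and Arrdc3 was listed at 0. Mlxip, which encodes MondoA, the glucose-sensing factor that switches on Txnip in muscle, was lower (12.8 ± 0.049 and 10.7 ± 0.099 RPKM, log2 fold change -0.32). Mitochondrial thioredoxin Txn2 (0.33) and the glucose transporter gene Slc2a1 (0.26) were higher, and the cytosolic thioredoxin Txn1 did not pass (-0.0050, limma adjusted p 0.912). Slc2a4, the insulin-responsive transporter gene, was called lower at -0.07 but stood at 0.02 with unscaled values.

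Denervation and acetylcholine receptor genes had 5 of 9 tested genes higher and 0 lower (55.6% called), with a median of 0.57. The list names genes tied to denervation, whichever way they move in denervated muscle, so its counts do not measure likeness to denervation. Myog went from 1.08 ± 0.219 to 4.86 ± 0.467 RPKM (SD, n = 2), Chrna1 from 2.77 ± 0.028 to 8.19 ± 0.028 RPKM and Dach2 from 0.825 ± 0.0071 to 2.79 ± 0.050 RPKM. The log2 fold changes were 1.44, 1.21 and 1.00. Hdac4, whose product induces Myog after denervation, was 4.87 and 4.98 RPKM and did not pass (limma adjusted p 0.405). The Schwann cell markers, which come with nerve, were higher in the same libraries, and their part was not tested.

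**Figure D4:**
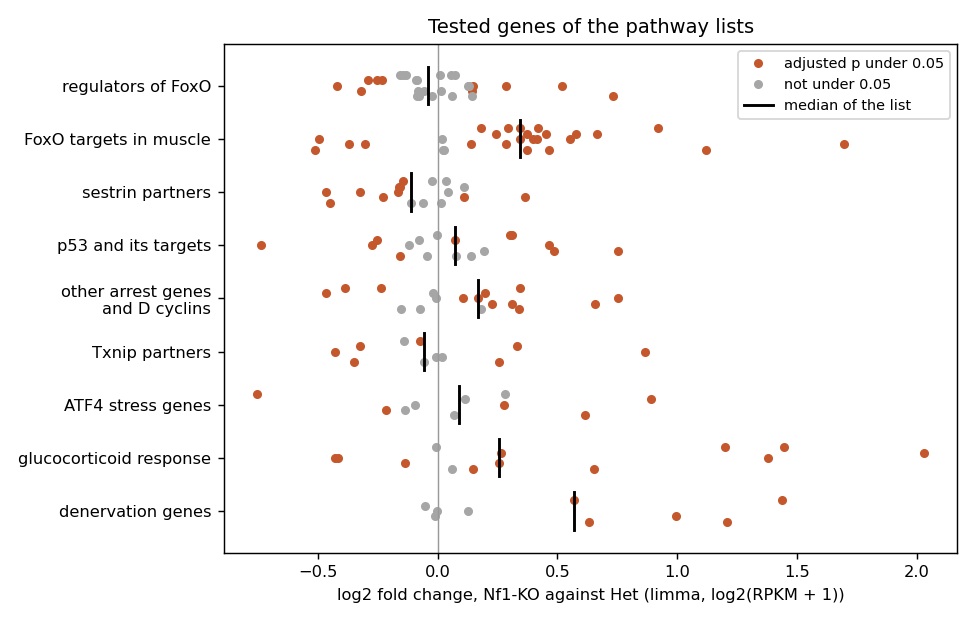
Log2 fold change of Nf1-KO against Het (x axis) of every tested gene in the 9 pathway lists (rows); orange points had a limma adjusted p under 0.05, grey points did not, and black bars are list medians. The FoxO targets lie mostly to the right (median 0.34) and the sestrin partners mostly to the left (median -0.11).

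Across settings of the limma fit, 6 members (Foxo1, Foxo3, Sesn1, Cdkn1a, Gadd45a and Txnip) were called in all 14 and kept their direction. Foxo6 was called in 12 of 14, Foxo4 and Sesn3 in 8 of 14 each, and Sesn2 in 0 of the 13 that tested it. Every member kept its sign in every setting that tested it.

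**Figure D5:**
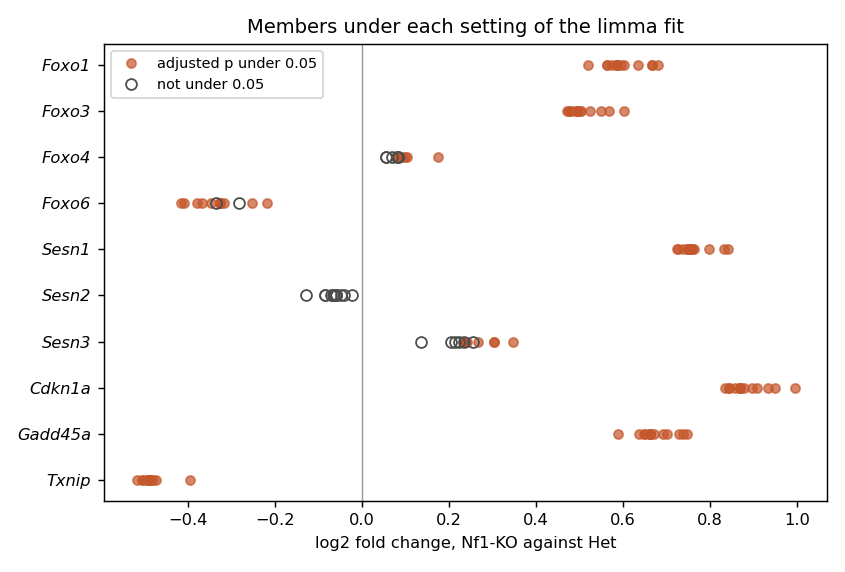
Log2 fold change of each gene (x axis) under the main and each alternative setting of the limma fit; filled points had an adjusted p under 0.05 and open points did not. Foxo4, Foxo6 and Sesn3 have open and filled points, Sesn2 has open points only, and no gene crosses 0.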

How the data were processed

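Total RNA libraries were made with a TruSeq version 2 kit, per the labels' protocols, in 4 samples grouped by their titles into Het and Nf1-KO. The submitters' processing notes name STAR 2.4.2a, DESeq2 and the build mm9; gene models, counting and strand are not given in the sources used here. The authors deposited 1 value per gene and library, read from its size and sums (532315 to 547144) as RPKM. A further table by the authors holds their comparison in 13985 rows, whose columns per the file headers are a signal (mean normalized count, which sums to 49581081 and stands for the depth of a mean library), a log2 fold change with its standard error, a test score, and p-values before and after adjustment. Rows named by a number (33) were left out, and where a name had copies (1781 rows) its highest-mean row was used.

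Values were scaled by a trimmed mean of log ratios (trimming 30% by ratio and 5% by abundance at each end; factors 0.969, 0.967, 1.03 and 1.03) and tested on log2(RPKM + 1) by limma 3.58.1 (R 4.3.3), letting the variance follow the mean. P-values were two-sided and adjusted by Benjamini-Hochberg over 10690 genes. Fold changes on this scale understate those of low genes, and the number of libraries limits the precision. Means ± SD and percent changes are of deposited RPKM. Log2 fold changes are of scaled values, unless given as unscaled or as the authors', so the 2 measures differ. Positions are from GENCODE M21 (GRCm38), matched by name. The members and all lists were chosen with earlier results of these data known. Mdm2, Trp53, Arrdc3, Arrdc4, Txn1, Hdac4, Rragc, Atg4b, Insr and Trim63 were chosen after their values were seen. Apart from these, members and markers, genes were named as the up to 3 largest called changes per direction and list with a mean of at least 1 RPKM. A gene that this rule names is not reported here. Alternatives were 2 pseudocounts, 2 filters, 2 scalings, no variance trend, a replicate block, summed copies, each library left out and the authors' deposited table. The labels give no batch.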

Additional observations from a re-analysis of the deposited data

How the results depend on the processing

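Of 440 values under alternatives, 399 kept the sign and the side of the threshold, or for counts stayed within 1.5 times, 23 lost a call, 18 counts in single lists moved further and none reversed. With no filter, where more genes were tested, calls were lost for Foxo4 (0.070, adjusted p 0.107), Foxo6 (-0.34, 0.079), Sesn3 (0.22, 0.171) and Nf1 (-0.19, 0.074). Without a variance trend they were lost for Foxo4 (0.084, 0.13) and Sesn3 (0.23, 0.061), and with scaling that left out the 20 most abundant genes for Foxo4 (0.056, 0.131) and Sesn3 (0.21, 0.060). With unscaled values Nf1 was at -0.13 (0.094). In the authors' deposited table Foxo4 was at 0.072 and Sesn3 at 0.31, not called. Unless given, the cause was not tested.

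Libraries of the same number did not deviate together (correlation of deviations -0.018 across 10690 genes). A replicate block in the fit gave 5231 called genes against 5372, and Foxo4 (0.084, adjusted p 0.058) and Nf1 (-0.18, 0.056) lost their calls. With single libraries left out, log2 fold changes ran from 0.055 to 0.10 for Foxo4, -0.42 to -0.22 for Foxo6, 0.14 to 0.35 for Sesn3 and -0.21 to -0.15 for Nf1; a lone library is then assumed to vary like the other group. With unscaled values 3760 genes were higher and 1883 lower (66.6% higher), against 2660 and 2712 (49.5%), and the median log2 fold change of all tested genes was 0.07.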

Other observations

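Glucocorticoid response genes had 8 of 13 tested genes higher and 3 lower past the threshold (84.6% called, against 50.3% of all tested genes), with a median log2 fold change of 0.26. Fkbp5, a chaperone of the glucocorticoid receptor, went from 5.60 ± 0.106 to 27.6 ± 0.460 RPKM (SD, n = 2), and the metallothionein genes Mt2 and Mt1 had log2 fold changes of 1.45 and 1.38. Cebpd (-0.43) and Tsc22d3 (-0.42), which the same hormones induce, were lower, as was the receptor gene Nr3c1 (-0.14), whose call was lost with unscaled values. ATF4 stress genes had 3 of 10 tested genes higher and 2 lower (50% called), with a median of 0.09. Ddit4, an inhibitor of mTORC1, rose from 21.1 ± 0.969 to 42.6 ± 1.5 RPKM (0.89 on the log2 scale), while Chac1, which breaks down glutathione, fell from 54.4 ± 3.05 to 34.0 ± 0.516 RPKM (-0.75). Atf3 and Atf4 had log2 fold changes of 0.62 and 0.28, and Ppp1r15a of -0.21.

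By the Euclidean distance between mean-centred log2 values over the 4 libraries, with a mean of at least 1 RPKM, the genes nearest to each called member were Cox8b and Clk1 for Foxo1, Hmgn1 and Ipo13 for Foxo3, Clic4 and Lars for Foxo4, and a row named by a sequence identifier and Slc25a36 for Foxo6. They were Oat and Hoxd8 for Sesn1, Nelfa and Echdc3 for Sesn3, Slc25a22 and Phlda1 for Cdkn1a, Lgmn and Arpp21 for Gadd45a, and Tmem184c and Pon3 for Txnip. For Sesn2 they were Ikbkap and Ubl3. Distances ran from 0.0027 (Ikbkap) to 0.057 (Slc25a36). With 4 libraries in 2 groups, likeness mostly reflects the size of the change and the gap between replicates.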
